A study of Mus musculus with 12 samples.

Results

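The genes described here are 10 direct transcriptional targets of the tumour suppressor p53, taken by name from what is known of the pathway: Cdkn1a, Mdm2, Ccng1, Bax, Bbc3, Trp53inp1, Phlda3, Zmat3, Plk2 and Eda2r. All 10 were among the 12591 genes of the deposited expression table. The cells were PER2::LUC mouse embryonic fibroblasts (MEFs), an immortalized line of the strain C57 PER2::LUC whose PER2 clock protein is fused to luciferase. Confluent dishes were treated for 24 h with compounds that act on methyl metabolism, and polyadenylated RNA was sequenced from 3 dishes per group, 12 libraries in all. The control group (CTL) received 3.3 mM HCl. The DZ group received 10 μM deazaneplanocin A, which blocks the hydrolysis of S-adenosylhomocysteine, together with 3.3 mM HCl. The adenine group received 1 mM adenine with 3.3 mM HCl, and the SAM group 1 mM S-adenosylmethionine with 3.3 mM HCl, so every group carried the acid. SAM is the methyl donor of most cellular methylations, and adenine is released when its breakdown product methylthioadenosine is cleaved. The labels do not say whether the dishes were separate cultures on separate days, so the p-values measure only the spread between these dishes, and the p53 status of the line is not given in the sources used here.

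p53, encoded by Trp53, is a transcription factor that is kept low by the ubiquitin ligase Mdm2 and is stabilized when DNA is damaged or growth is disturbed. It binds response elements near its targets and raises genes that stop the cell cycle, promote apoptosis, repair DNA or restrain p53 itself. Because Mdm2 is both a target and the main inhibitor of p53, the pathway forms a negative feedback loop, and Cdkn1a (p21) is its best known cell cycle effector. Several of these targets also answer to other transcription factors.

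Values are given as log2 CPM, the reads of a gene per 1000000 reads of its library after the authors' scaling of the library totals. Reads here are the whole counts recovered from the deposited values, and how these counts relate to sequenced read pairs is not given. The libraries held between 45649534 and 56789090 reads on the listed genes, with CTL between 45649534 and 49644171. The members had between 345 and 40035 reads per library, the fewest being those of Cdkn1a. Of 12 fibroblast markers 9 were listed, with a summed level of 14.4 to 14.5 log2 CPM in CTL, 14.8 in DZ, 14.6 to 14.7 in adenine and 14 to 14.1 in SAM, whereas Dcn, Lum and Fap were not listed. In SAM 8 of the 9 were called higher, beside 33.7% of all genes, and the abundant Fn1 fell by 1.58. No endothelial or epithelial marker of 6 each was listed, and Cd68 was the only listed leukocyte marker of 7. The authors listed only genes of at least 1 CPM in every sample, so an unlisted marker may still have been present in some dishes. Cd68, a lysosomal protein that fibroblasts can also make, was at 1.60 to 2.00 log2 CPM in CTL, 1.45 to 1.92 in DZ, 3.44 to 3.63 in adenine and 3.96 to 4.14 in SAM, and its part in the results below was not tested. These are bulk RNA libraries, in which fewer cells of a kind and less RNA per cell cannot be told apart.

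The p53 response element is a pair of decamers of 10 bases, here allowed a spacer of up to 1 base and at most 1 mismatch to the consensus, with the C and G of each core intact. The consensus reads the same on both strands. Within 4000 bases on either side of the canonical transcript start (GRCm39 sequence, GENCODE vM39 starts), 4 of the 10 members held a match, against 497 of 12566 genes of the table with a canonical start (3.96%). Among 56 other p53 targets, described further below, 6 held a match (10.7%). The window was widened after the first matches had been seen, so these shares are a description. The elements are printed to show which of the genes described below carry one, in the direction of the gene, with the 4-base core of each decamer in capitals.
Cdkn1a, chr17:29309902-29309921 (+), upstream: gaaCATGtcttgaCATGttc
Ccng1, chr11:40646289-40646308 (−), upstream: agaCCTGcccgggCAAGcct
Ccng1, chr11:40645763-40645782 (−), intron: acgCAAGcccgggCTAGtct
Trp53inp1, chr4:11155112-11155132 (+), upstream: aaaCATGtccaggaCTAGcct
Zmat3, chr3:32418480-32418499 (−), intron: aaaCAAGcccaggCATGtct
The elements of Trp53inp1 and Zmat3 had 0 mismatches, a perfect match being held by 0.446% of all genes, and the others had 1. The Cdkn1a element lay 2836 bases before the canonical start, and the Ccng1 elements lay 170 bases before and 356 bases after it. No match in the window says only that these letters were not found there. Among the genes with a match, Cdkn1a and Trp53inp1 were both lower under SAM, whereas Ccng1 and Zmat3 did not pass there under the authors' scaling. In adenine Cdkn1a and Ccng1 were higher, Trp53inp1 was lower and Zmat3 did not pass. Of the members without a match, Bbc3, Eda2r and Bax were lower under SAM, Phlda3 was higher, and Mdm2 and Plk2 did not pass.

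The members did not move as a block. At a false discovery rate (FDR) under 0.01 over all 12591 genes in the limma fit, DZ changed 4 of 10 members, 1 higher and 3 lower, when 45.9% of all genes were called (22.6% higher and 23.4% lower). Adenine changed 8 of 10, 3 higher and 5 lower, beside 61.6% of all genes (30.6% higher and 31.0% lower). SAM changed 6 of 10, 1 higher and 5 lower, beside 69.3% of all genes (33.7% higher and 35.7% lower). On plain read totals, in place of the authors' scaled totals, the members called were 6 in DZ (3 higher), 10 in adenine (5 higher) and 8 in SAM (4 higher). All genes called on that scaling were 5813 in DZ (3206 higher), 7836 in adenine (4572 higher) and 8924 in SAM (5462 higher). With 10 genes these shares lie near the background, so the results are about which members moved and in which direction. The median log2 fold change of the members stood at 0.07 with DZ, −0.10 with adenine and −0.11 with SAM, beside −0.01, 0.00 and −0.02 over all genes. The 3 treatments were compared with the same CTL dishes, so their changes share the error of those controls.

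**Figure D1:**
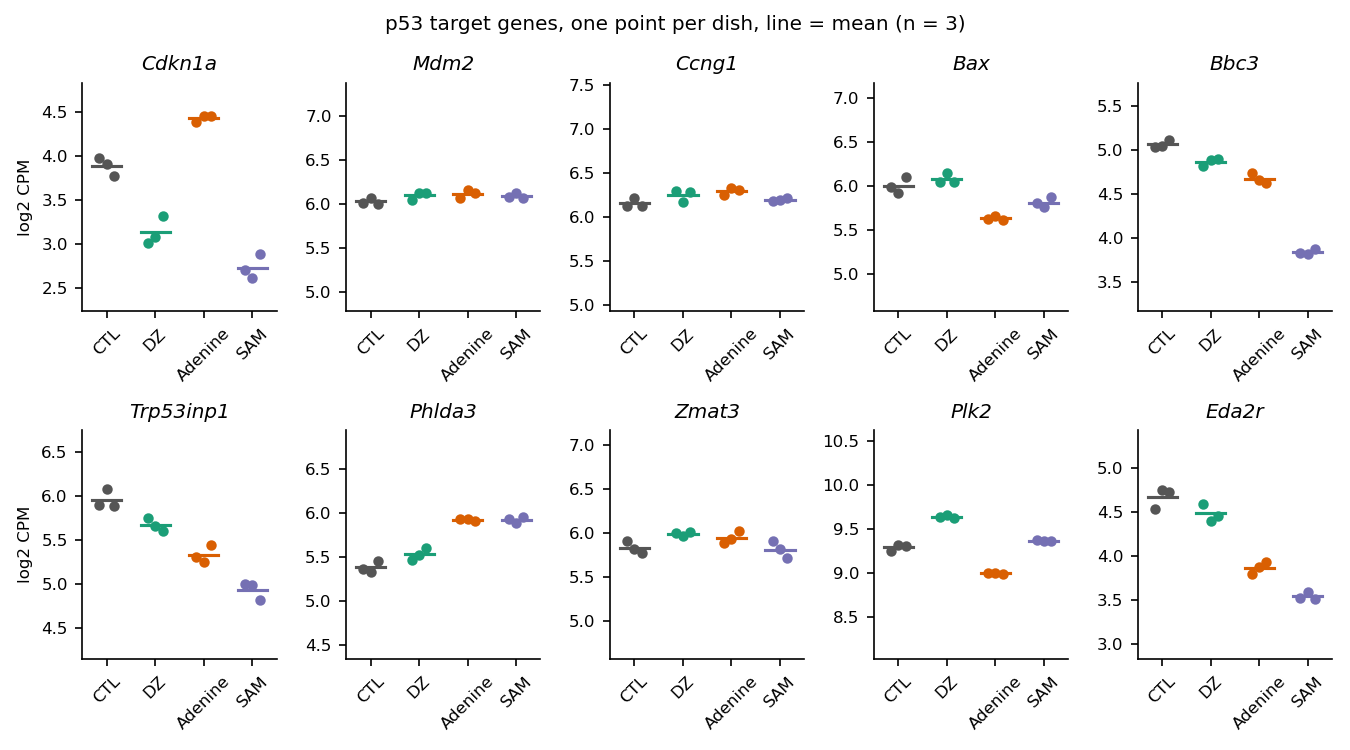
Expression of the 10 p53 target genes in log2 CPM (y axis, the same span of 2.6 units in every panel) in CTL, DZ, adenine and SAM dishes (x axis), with one point per dish and a line at the mean of 3. Cdkn1a is highest in adenine and lowest in SAM, Bbc3, Trp53inp1 and Eda2r step down from CTL to SAM, and Mdm2 stays between 6.0 and 6.16 in all 12 dishes.

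Among the cell cycle genes, Cdkn1a (ENSMUSG00000023067, chr17:29309936-29319701, plus strand), the p21 inhibitor of cyclin-dependent kinases, had the widest range of any member. Its level was 3.98, 3.90 and 3.77 log2 CPM in the CTL dishes, 4.39, 4.45 and 4.45 in adenine, 3.00, 3.08 and 3.31 in DZ, and 2.70, 2.61 and 2.88 in SAM. Every adenine dish was above every CTL dish, and every DZ and SAM dish was below. Cdkn1a rose 1.46-fold in adenine (log2 fold change 0.54 ± 0.09 SE, n = 3 per group, limma adjusted p = 6.01e-05). It fell 1.68-fold in DZ (−0.75 ± 0.09, limma adjusted p = 4.82e-06) and 2.23-fold in SAM (−1.16 ± 0.09, limma adjusted p = 9.98e-09). Only 2.26% of all genes fell further in DZ, and 3.72% in SAM.

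Ccng1 (chr11:40639377-40646148, minus strand), cyclin G1, which works with a phosphatase to restrain p53 signalling, moved little. Its 12 dishes lay between 6.12 and 6.33 log2 CPM, and the adenine dishes (6.25, 6.33 and 6.31) were all above the CTL dishes (6.12, 6.22 and 6.12). The rise in adenine was 0.14 ± 0.04 on the log2 scale (limma adjusted p = 0.00470), and this call was lost in 6 of 18 alternative analyses, among them the fits without CTL 1 (adjusted p = 0.0224), CTL 3 (0.0240), adenine 2 (0.0241) or adenine 3 (0.0172). The gene overlaps Nudcd2 on the opposite strand. The values in DZ (0.09) and SAM (0.04) did not pass the test, although the SAM value did on plain read totals (0.16, limma adjusted p = 0.00175).

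Plk2 (chr13:110531015-110537379, plus strand), a stress-induced polo-like kinase, was the most abundant member per transcript length, at 187 CPM per kb of its longest annotated transcript in CTL against 3.61 for Cdkn1a. Its dishes were at 9.26, 9.32 and 9.31 log2 CPM in CTL, 9.64, 9.66 and 9.63 in DZ, 9.0, 9.0 and 8.99 in adenine, and 9.38, 9.37 and 9.36 in SAM. No pair of groups overlapped, and the pooled SD within groups was 0.02 log2 CPM. Plk2 rose in DZ by 0.35 ± 0.03 (limma adjusted p = 2.45e-08) and fell by 0.30 in adenine (SE 0.03, limma adjusted p = 4.78e-08), a difference of −0.10 with quantile normalization (adjusted p = 0.00416). In SAM its difference of 0.08 ± 0.03 just missed the threshold (limma adjusted p = 0.0121), but it passed with quantile normalization (0.40, adjusted p = 1.85e-09) and with plain read totals (0.20, adjusted p = 2.22e-06).

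Mdm2 (chr10:117524780-117546730, minus strand), which closes the feedback loop, was called in none of the comparisons. Its CTL dishes were at 6.01, 6.07 and 6.0 log2 CPM, its DZ dishes at 6.04, 6.13 and 6.13, its adenine dishes at 6.07, 6.16 and 6.13, and its SAM dishes at 6.08, 6.13 and 6.06. All treated groups overlapped CTL. The 95% intervals of its log2 change ran from −0.01 to 0.15 in DZ, from 0.01 to 0.17 in adenine and from −0.02 to 0.14 in SAM. These hold at most a small rise under the authors' scaling. When libraries were scaled to plain read totals, which moved the median of all genes in SAM from −0.02 to 0.11, the Mdm2 change became 0.15 in adenine (adjusted p = 0.00179) and 0.18 in SAM (adjusted p = 0.000293) and passed the test.

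**Figure D2:**
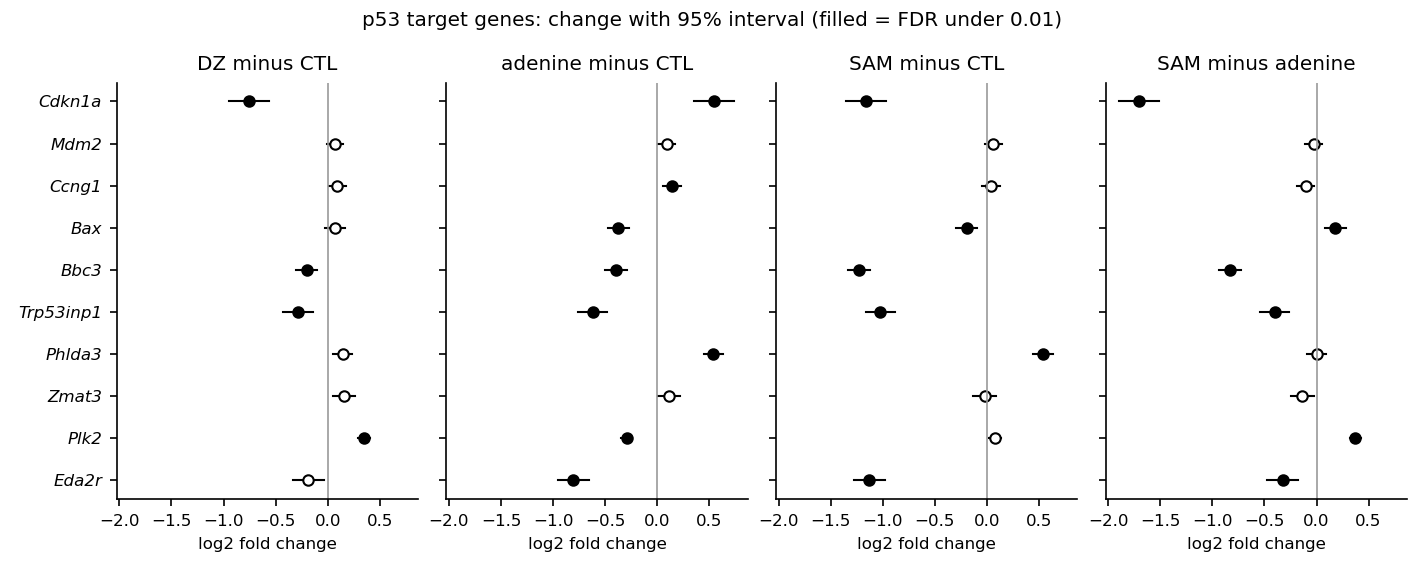
Log2 fold change (x axis) of each p53 target gene (rows) in DZ, adenine and SAM against CTL and in SAM against adenine, with 95% intervals from the limma fit of 12 libraries; filled points passed an FDR of 0.01. Cdkn1a is the only member whose calls in adenine (0.54) and SAM (−1.16) are on opposite sides of 0, and Phlda3 sits at 0.54 in both.

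The genes of the apoptotic arm split. Bbc3 (PUMA, chr7:16042318-16052130, plus strand), a BH3-only protein that disables the survival members of the BCL2 family, was lower in all treatments. It was at 5.04, 5.05 and 5.12 log2 CPM in CTL, 4.82, 4.89 and 4.90 in DZ, 4.74, 4.66 and 4.63 in adenine, and 3.84, 3.82 and 3.88 in SAM. The groups formed 4 steps with no overlap. In SAM the level fell 2.34-fold (−1.23 ± 0.05, limma adjusted p = 2.28e-12), in adenine 1.32-fold (−0.40 ± 0.05, adjusted p = 2.23e-06) and in DZ 1.15-fold (−0.20 ± 0.05, adjusted p = 0.00227). The DZ call was lost without CTL 3 (adjusted p = 0.0139) or without DZ 1 (adjusted p = 0.0126).

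Trp53inp1 (chr4:11156412-11175230, plus strand), a nuclear protein that promotes p53 phosphorylation and autophagy, ran in the same order. Its dishes were at 5.90, 6.08 and 5.88 log2 CPM in CTL, 5.75, 5.66 and 5.60 in DZ, 5.31, 5.25 and 5.44 in adenine, and 5.0, 4.99 and 4.81 in SAM. No group overlapped another. It fell 2.03-fold in SAM (−1.02 ± 0.07, limma adjusted p = 1.05e-09), 1.54-fold in adenine (−0.62 ± 0.07, adjusted p = 5.51e-07) and 1.22-fold in DZ (−0.28 ± 0.07, adjusted p = 0.00190). The DZ call was lost without CTL 2 (adjusted p = 0.0128) or DZ 3 (adjusted p = 0.0121).

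Eda2r (chrX:96320270-96420847, minus strand), a TNF receptor family member that binds ectodysplasin A2, was at 4.53, 4.75 and 4.73 log2 CPM in CTL, 3.8, 3.87 and 3.93 in adenine, and 3.52, 3.59 and 3.51 in SAM. Adenine and SAM dishes lay below all CTL dishes. It fell 2.19-fold in SAM (−1.13 ± 0.07, limma adjusted p = 6.20e-10) and 1.75-fold in adenine (−0.81 ± 0.07, adjusted p = 5.23e-08). The DZ dishes, at 4.60, 4.40 and 4.46, overlapped CTL, and their difference of −0.19 ± 0.07 did not pass the test (adjusted p = 0.0323), although it did without CTL 1 (−0.26, adjusted p = 0.00672).

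Bax (chr7:45111015-45116325, minus strand), the pore-forming effector of the mitochondrial pathway, was at 5.99, 5.92 and 6.10 log2 CPM in CTL, 6.04, 6.14 and 6.04 in DZ, 5.63, 5.65 and 5.61 in adenine, and 5.81, 5.75 and 5.87 in SAM. It fell 1.30-fold in adenine (−0.37 ± 0.05, limma adjusted p = 3.40e-06) and 1.14-fold in SAM (−0.19 ± 0.05, adjusted p = 0.00153), with no overlap with CTL. Its SAM call was lost without CTL 3 (adjusted p = 0.0114) and on plain read totals (−0.07, adjusted p = 0.176). The DZ difference of 0.07 ± 0.05 did not pass the test.

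Phlda3 (chr1:135693809-135697686, plus strand), a pleckstrin homology protein that restrains AKT at the membrane, went the other way. It was at 5.36, 5.33 and 5.46 log2 CPM in CTL, 5.93, 5.93 and 5.90 in adenine, and 5.93, 5.88 and 5.95 in SAM. All 6 treated dishes were above CTL. It rose 1.45-fold in adenine (0.54 ± 0.04, limma adjusted p = 2.18e-08) and 1.45-fold in SAM (0.54 ± 0.04, adjusted p = 1.55e-08), and was the one member called higher in SAM. The DZ dishes, at 5.46, 5.52 and 5.60, were also above CTL, but by 0.14 ± 0.04, just short of the threshold (adjusted p = 0.0102), which it passed in 8 of 18 alternatives, among them the fits without CTL 3 (adjusted p = 0.00417) or DZ 1 (adjusted p = 0.00459).

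Zmat3 (chr3:32388941-32420163, minus strand), a zinc-finger protein that binds RNA and affects splicing, was called in none of the comparisons. Its values were 5.78 to 5.91 log2 CPM in CTL, 5.97 to 6.01 in DZ, 5.89 to 6.03 in adenine and 5.72 to 5.91 in SAM. The largest difference was 0.16 ± 0.05 in DZ, where every dish lay above CTL (limma adjusted p = 0.0155). That difference was called in 4 of 18 alternatives. Among them were the looser FDR of 0.05, plain read totals (0.18, adjusted p = 0.00637) and the fit without CTL 1 (0.20, adjusted p = 0.00806). The adenine value passed on plain read totals (0.18, adjusted p = 0.00596). The SAM interval ran from −0.13 to 0.09.

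Adenine and SAM were given at the same 1 mM dose for the same 24 h, which allowed a direct test, and SAM carries the adenine base within its adenosyl group. In this comparison 6 of 10 members were called, 2 higher and 4 lower in SAM, beside 42.7% of all genes (20.8% higher and 22.0% lower), and the members had a median of −0.12 against 0.00 over all genes. On plain read totals 2 of the 6 were again higher, and 3573 of 5654 genes. Cdkn1a was 3.25-fold lower in SAM than in adenine (−1.70 ± 0.09, limma adjusted p = 7.04e-10), and only 0.214% of all genes were lower by more. Bbc3 was lower by 0.83 ± 0.05 (adjusted p = 1.93e-09), Trp53inp1 by 0.40 ± 0.07 (adjusted p = 0.000119) and Eda2r by 0.32 ± 0.07 (adjusted p = 0.00116).

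Plk2 was higher in SAM than in adenine by 0.37 ± 0.03 (limma adjusted p = 1.38e-08) and Bax by 0.18 ± 0.05 (adjusted p = 0.00436). The Bax call was lost without any one of adenine 1, adenine 3, SAM 1 or SAM 3 (adjusted p = 0.0115 to 0.0185). Phlda3 differed by 0.00, with a 95% interval of −0.09 to 0.09, and Mdm2 by −0.03, with an interval of −0.11 to 0.05. Ccng1 and Zmat3 did not pass the test, with intervals of −0.19 to −0.02 and −0.24 to −0.03, although Zmat3 did without SAM 1 (−0.18, adjusted p = 0.00924). DZ was given at 10 μM, so its values stand beside the others without a test.

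Trp53 itself was lower in every treatment. It was at 9.17, 9.10 and 9.13 log2 CPM in CTL, 8.99, 9.0 and 9.01 in DZ, 8.80, 8.82 and 8.90 in adenine, and 8.71, 8.76 and 8.80 in SAM. It fell by 0.13 in DZ (limma adjusted p = 0.00224), 0.29 in adenine (adjusted p = 6.48e-07) and 0.38 in SAM (adjusted p = 2.81e-08). A processed pseudogene, Trp53-ps, was listed at 3.16 log2 CPM in CTL, and its change passed the test in no treatment. Wrap53 overlaps Trp53 on the opposite strand and was at 3.19 log2 CPM in CTL, far below Trp53. Wrap53 rose by 0.32 in DZ, 0.32 in adenine and 0.81 in SAM. The Trp53 values are uncertain to the extent that reads were shared.

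Of 31 names in a list of p53 and its regulators, 29 were measured. DZ called 6 higher and 6 lower, adenine 6 and 8, and SAM 7 and 10, with medians of −0.02, −0.05 and −0.08. The called shares were 41.4%, 48.3% and 58.6%, below the 45.9%, 61.6% and 69.3% of all genes. Mdm4, the partner of Mdm2 in holding p53 down, was at 6.41, 6.43 and 6.31 log2 CPM in CTL and 5.68, 5.68 and 5.45 in SAM, a fall of 0.78 (limma adjusted p = 3.31e-09). Its values of −0.03 in DZ and −0.15 in adenine did not pass the test. Cop1, a further ubiquitin ligase for p53, fell by 0.15 in DZ, 0.76 in adenine and 1.13 in SAM. Ppm1d, the phosphatase that switches p53 signalling off, was called in none of the treatments (−0.07, −0.03 and 0.06), and Usp7, which removes ubiquitin from p53 and Mdm2, fell in adenine by 0.19, while its values of −0.11 in DZ and −0.08 in SAM did not pass.

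The checkpoint kinases that act on p53 moved apart. Chek1, the kinase of the replication checkpoint, was at 3.75, 3.53 and 3.60 log2 CPM in CTL, 4.02, 4.07 and 4.01 in DZ, 4.95, 4.92 and 5.05 in adenine and 5.33, 5.40 and 5.35 in SAM. It rose by 0.41, 1.34 and 1.73 respectively, with no overlap between groups. Chek2 rose by 0.35 in adenine and 0.60 in SAM and fell by 0.31 in DZ. Atr rose by 0.23 in DZ and fell by 0.19 in adenine and 0.53 in SAM, while Atm fell in SAM by 0.35, and its values of 0.16 in DZ and 0.09 in adenine did not pass.

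Cdkn2a, whose ARF product inhibits Mdm2 and whose INK4a product inhibits CDK4 and CDK6, was at 8.01, 7.90 and 7.99 log2 CPM in CTL and 8.66, 8.63 and 8.74 in SAM. It rose by 0.24 in DZ, 0.34 in adenine and 0.71 in SAM, and gene-level values do not separate the 2 products. Hexim1 rose by 0.91 in adenine and 1.11 in SAM, with 0.02 in DZ not passing, and Daxx rose by 0.61 in DZ, 0.27 in adenine and 0.49 in SAM. Rpl5 and Rpl11, ribosomal proteins that bind Mdm2, fell in all treatments (Rpl5 by 0.59, 1.32 and 1.27, and Rpl11 by 0.44, 0.63 and 0.38). Rpl5 has processed pseudogenes that could share its reads, as does Mdm4.

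**Figure D3:**
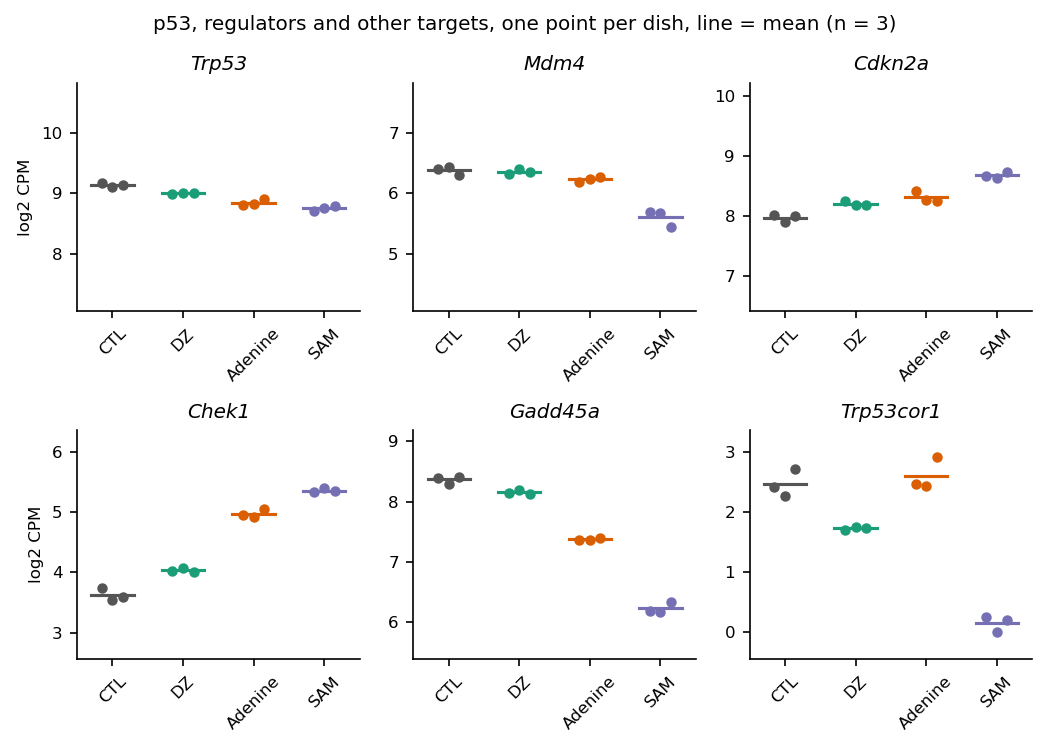
Expression of Trp53, Mdm4, Cdkn2a, Chek1, Gadd45a and Trp53cor1 in log2 CPM (y axis, the same span of 3.8 units in every panel) in the 4 groups (x axis), one point per dish with a line at the mean of 3. Chek1 and Cdkn2a are highest and Mdm4, Gadd45a and Trp53cor1 lowest in SAM, and Trp53 spans 8.71 to 9.17.

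A list of 61 other p53 targets, 56 of them measured, moved in both directions. DZ called 22 higher and 11 lower, adenine 23 and 16, and SAM 25 and 18, with medians of 0.07, 0.10 and 0.10 beside −0.01, 0.00 and −0.02 over all genes. The called shares were 58.9%, 69.6% and 76.8%, beside 45.9%, 61.6% and 69.3% of all genes. SAM against adenine called 11 higher and 12 lower (41.1%, beside 42.7% of all genes). In DZ the smallest adjusted p-values belonged to Perp, a desmosomal apoptosis effector, which rose by 1.22, Sulf2, which edits heparan sulphate (0.63), Thbs1, an antiangiogenic matrix protein (1.07), Tap1, a peptide transporter of antigen presentation (1.40), and Ddias (0.98).

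In adenine and SAM the leading genes pointed both ways. Sulf2 rose by 2.18 and 2.12, Ddias, an inhibitor of apoptosis after DNA damage, by 2.25 and 2.80, Sesn1 by 1.25 and 1.28, and Polh, a translesion DNA polymerase, by 1.03 and 1.47. Against these, Ndrg1 fell by 1.34 and 2.55, the growth-arrest gene Gadd45a by 0.99 and 2.14, and Sesn2, a stress-induced regulator of mTORC1, by 0.38 and 1.74. Gadd45a was at 8.39, 8.30 and 8.41 log2 CPM in CTL, 7.37, 7.36 and 7.39 in adenine and 6.19, 6.16 and 6.34 in SAM, with no overlap.

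Trp53cor1 (lincRNA-p21), a noncoding p53 target 11652 bases from Cdkn1a on chromosome 17, was named after its values were seen. It was at 2.42, 2.26 and 2.71 log2 CPM in CTL, 1.70, 1.76 and 1.73 in DZ, 2.46, 2.43 and 2.92 in adenine and 0.26, 0.01 and 0.21 in SAM. It fell by 0.73 in DZ (limma adjusted p = 0.000517) and 2.30 in SAM (adjusted p = 7.57e-10), and the adenine value of 0.14 did not pass. The SAM values lie close to the lowest level that the authors' filter of 1 CPM in every sample keeps. Trp53cor1 overlaps the far more abundant Srsf3 on the opposite strand, which was at 7.96 log2 CPM in CTL. Srsf3 fell by 0.42 in DZ and rose by 0.11 in adenine and 0.11 in SAM. How far shared reads shape the Trp53cor1 values was not tested.

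**Figure D4:**
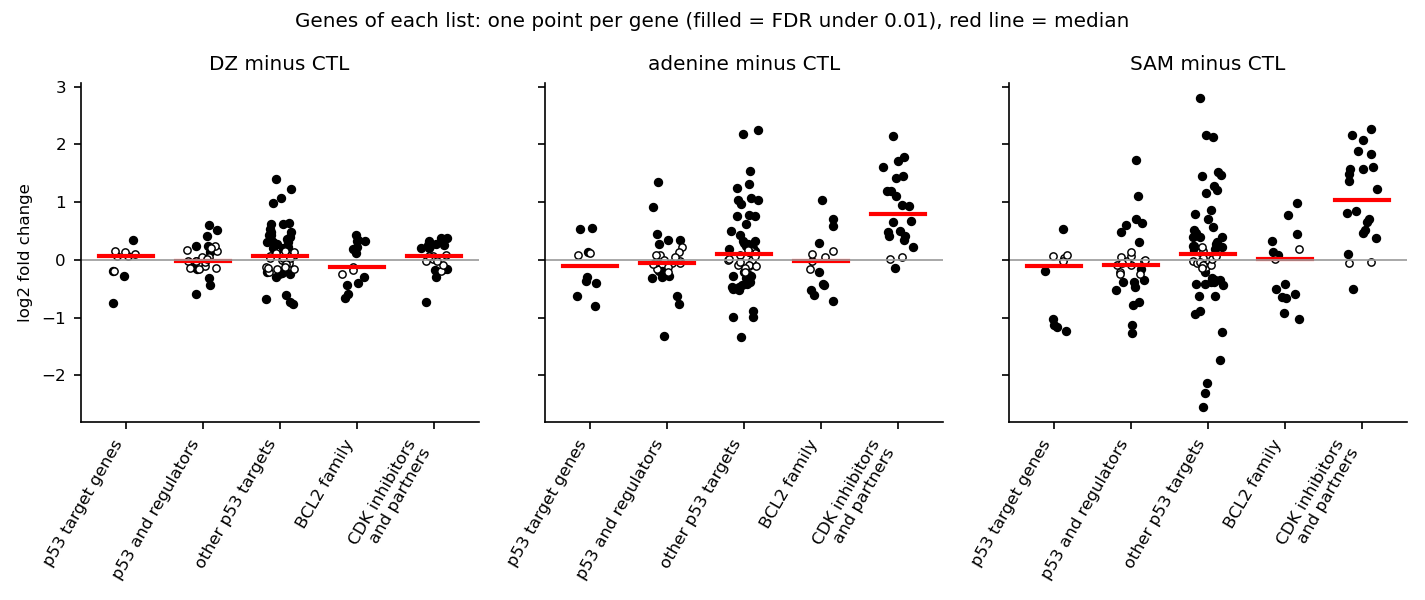
Log2 fold change (y axis) in DZ, adenine and SAM against CTL for the genes of 5 lists (x axis), one point per gene, filled where the FDR was under 0.01, with a red line at the median. The p53 lists scatter on both sides of 0 with medians between −0.11 and 0.10. The list of CDK inhibitors and partners (cyclins, CDKs, Pcna, Rb1, Rbl1 and Rbl2) has medians of 0.80 in adenine and 1.04 in SAM.

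Cdkn1a acts on cyclin-dependent kinases, and of 23 of its relatives and partners 22 were measured. In adenine 19 were higher and 1 lower, in SAM 19 and 1, and in DZ 9 and 5, with medians of 0.80, 1.04 and 0.07. The called shares were 90.9%, 90.9% and 63.6%, beside 61.6%, 69.3% and 45.9% of all genes. Cyclin D1 (Ccnd1) rose by 0.38 in DZ, 1.10 in adenine and 1.61 in SAM, the mitotic cyclin Ccnb2 by 0.26, 2.14 and 2.16, and Cdk1 by 0.21, 1.45 and 1.83. The inhibitor Cdkn2c rose as well, by 0.32, 1.42 and 1.57. The 1 gene called lower in adenine and in SAM was another inhibitor, Cdkn1b (−0.13 and −0.51). Its value of 0.09 in DZ did not pass. Ccng2, the relative of Ccng1, fell by 0.72 in DZ and rose by 0.22 in adenine and 0.46 in SAM. The called cell cycle genes were mostly higher in adenine, where Cdkn1a was higher, and in SAM, where it was lower. The part of these cell cycle changes in the values of the members was not tested.

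Of 21 BCL2 family names other than Bax and Bbc3, 15 were measured. DZ called 7 higher and 5 lower, adenine 4 and 6, and SAM 6 and 7. The called shares were 80%, 66.7% and 86.7%, beside 45.9%, 61.6% and 69.3% of all genes. Bcl2l11 (BIM), a BH3-only relative of Bbc3, rose by 0.35 in DZ, 1.04 in adenine and 0.77 in SAM. Bid rose by 0.32 in DZ and fell by 0.51 in adenine and 0.50 in SAM, and the survival gene Bcl2l1 (BCL-XL) likewise rose by 0.43 in DZ and fell by 0.60 and 0.64. Bcl2l2, another survival member, fell by 0.66, 0.72 and 0.91, and Bak1, the partner of Bax in pore formation, rose by 0.33, 0.29 and 0.32.

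Among relatives of Plk2 and Eda2r, 6 of 9 names were measured. Plk1 and Plk4, kinases of mitosis and centriole duplication, rose by 1.47 and 1.49 in adenine and by 1.85 and 1.81 in SAM, and by 0.30 and 0.31 in DZ. Plk3 was called in none of the treatments (0.23, 0.16 and 0.01). Eda, the gene that encodes ectodysplasin A including the Eda2r ligand, fell by 0.59, 0.67 and 0.67. Tnfrsf12a rose by 0.40 in both adenine and SAM, with −0.03 in DZ not passing, and Tnfrsf1a rose by 0.12 in DZ and fell by 0.11 in adenine and 0.12 in SAM, the SAM value becoming 0.00 on plain read totals.

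Over the 12 libraries, the genes whose levels ran most like Cdkn1a were 2410002F23Rik (Pearson r = 0.978), Krcc1 (0.978), Wls (0.975), Plscr3 (0.967) and Slc40a1 (0.960). Slc40a1, the iron exporter ferroportin, changed by −0.50 in DZ, 0.40 in adenine and −0.91 in SAM. The closest genes to Mdm2 were Slc39a1 (0.818), Ythdf1 (0.811), Prkar2a (0.808), Itih5 (0.800) and Zfp62 (0.796). The points share their groups and library scaling, and with 12591 genes to choose from these values are a description.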

How the data were processed

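Members and gene lists were chosen with earlier results of these data known. Per the labels, a stranded Illumina mRNA kit was used. The authors trimmed reads with Trimmomatic, aligned them with HISAT2 to GRCm39 guided by GENCODE vM27, quantified them with StringTie, kept genes of at least 1 CPM in every sample, and deposited log2 CPM values from edgeR; versions and whether counting used strand are not given in the sources used here. Reads of a gene and a listed gene overlapping it on the opposite strand may therefore not be told apart. Among the named genes whose overlaps were checked, this touches Ccng1, Trp53, Trp53cor1, Mdm4, Rpl5, Daxx, Sulf2, Thbs1, Sesn1, Polh, Gadd45a, Bak1, Bid, Ccnd1, Cdk1, Plk4 and Tnfrsf12a. Column names matched sample titles. Every value came back as a whole count (100% within 0.05 of a count, prior count 2), which gave the depths. The counts stem from the authors' StringTie quantification and were not checked against sequenced reads.

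One limma 3.58.1 model (R 4.3.3) of the 4 groups of 3 dishes was fitted to the 12591 genes, with empirical Bayes variances along a trend and Benjamini-Hochberg adjustment. A call is an FDR under 0.01, and ± is the standard error. Differences are on the log2 scale. The fit was tested on simulated data. Named genes were all members, 8 named regulators plus the 3 other regulators, 5 other targets and 3 BCL2 and CDK genes of smallest adjusted p in a comparison, all polo-like and receptor relatives, and the 5 genes most like Cdkn1a and Mdm2. Cdkn1b was named as the CDK list gene called lower in adenine and SAM. Overlaps with other genes were not checked for Cdkn1b, for the genes most like Cdkn1a and Mdm2, or for the cell type markers Cd68 and Fn1. Of 12591 identifiers, 12575 matched GENCODE vM39. Alternatives covered normalization, filters, pseudocount, variance model, thresholds, the replicate block and leaving out each library.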

Additional observations from a re-analysis of the deposited data

How the results depend on the processing

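Of the 40 member and comparison pairs, 22 kept their direction and call in all 18 alternatives. The calls of Cdkn1a, Bbc3, Trp53inp1 and Eda2r in SAM and of Cdkn1a in adenine and DZ were among them. At an FDR of 0.05, 7 members were called in DZ, 9 in adenine, 7 in SAM and 8 in SAM against adenine, beside 7343, 8852, 9697 and 6991 of all genes. With a required log2 change of 0.5, 1 member was called in DZ, 4 in adenine, 5 in SAM and 2 in SAM against adenine, and over all genes 1536 in DZ, 3386 in adenine, 4425 in SAM and 1215 in SAM against adenine. Values near 0 changed sign: Ccng1 in SAM with median centring (−0.0016), Zmat3 in SAM (0.10) and Mdm2 in SAM against adenine (0.033) on plain read totals, and Phlda3 in SAM against adenine with quantile normalization (−0.0045) and voom on the recovered reads (−0.00066). Leaving out one library moved Phlda3 in SAM against adenine between −0.015 and 0.019 and Zmat3 in SAM between −0.067 and 0.027. Plain read totals raised the share of higher calls, to 5462 of 8924 genes in SAM (4237 of 8731 with the authors' scaling) and 3573 of 5654 in SAM against adenine (2617 of 5382). Plain read totals leave out the authors' scaling factors, which were 0.962 to 0.968 in CTL, 1.003 to 1.008 in adenine and 1.047 to 1.054 in SAM. Why these factors differed between the groups was not tested.

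Same-numbered dishes of different groups deviated together only weakly (Pearson r of deviations from −0.142 to 0.181), and the main model did not pair them. Deviations from means of 3 dishes cannot show whether the dishes were handled in matched sets. With the replicate block, 5, 8, 6 and 6 members were called in DZ, adenine, SAM and SAM against adenine, beside 5762, 7739, 8734 and 5337 of all genes, the addition being Phlda3 in DZ (adjusted p = 0.00762). Standard errors of the member differences ran from 0.03 to 0.09, and 3 dishes a group limit what smaller differences can show.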
